A study of Mus musculus with 2 samples.

Results

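The 497 regions described here are the LSD1 peaks that start in the 31 Mb from 70 Mb onwards on mouse chromosome 8 (build mm9). They are 59.7% of the 833 peaks of that chromosome and 4.21% of the 11797 peaks of the whole list, and they lie in 24.1% of the span between its first and last peak. The region was chosen by the number of peaks per megabase in this same list, so its density is what selected it and no test is given for any value below. Peak position, length and score all come from the same contrast of LSD1 ChIP against input. Within the region, 3 stretches were kept apart by the rule: a proximal stretch at 70 to 75 Mb, a middle stretch at 80 to 91 Mb and a distal stretch of 8 Mb that begins at 93 Mb.

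The list came from chromatin immunoprecipitation and sequencing (ChIP-seq) of C2C12 cells, a mouse myoblast line that forms myotubes in low serum. Cells were grown with 25 mM glucose and 10% FBS and were then held for 48 h in 2% horse serum before fixation with formaldehyde and disuccinimidyl glutarate. There was 1 library made with a polyclonal anti-LSD1 antibody and 1 input library made with no antibody, both from the same kind of differentiating cells. No value therefore has a replicate error. The reads of both libraries were not analysed here, read depth is unknown, and the position of a peak does not show whether LSD1 touches the DNA itself or is held there by a partner protein.

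LSD1, also called KDM1A, is an amine oxidase that takes methyl groups off lysines of histone H3. It works in complexes with CoREST and histone deacetylases, which reach DNA through transcription factors. In muscle cells it is known as a cofactor of MyoD and MEF2 on muscle genes during differentiation. Because the gene table in hand is of another build than the peaks, no gene is assigned to any peak and no sequence is printed.

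Averaged over its length, each of the 3 stretches had more LSD1 peaks per Mb than the rest of the chromosome. Together they held 477 of the 497 members (96.0%). The proximal stretch held 95 peaks, or 19.0 per Mb. This average came from few places, as 5 of its 50 windows of 100 kb held 80 of the 95 peaks. The middle stretch held 272 peaks, or 24.7 per Mb, and the distal stretch held 110, or 13.8 per Mb. The segments between them were sparse, like the rest of the chromosome: 14 peaks lay at 75 to 80 Mb (2.8 per Mb) and 6 at 91 to 93 Mb (3.0 per Mb), against 336 peaks and 3.45 per Mb outside the 31 Mb region. Called sequence covered 0.978% of the proximal, 1.39% of the middle and 0.769% of the distal stretch, and 0.238% of the rest of the chromosome.

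**Figure D1:**
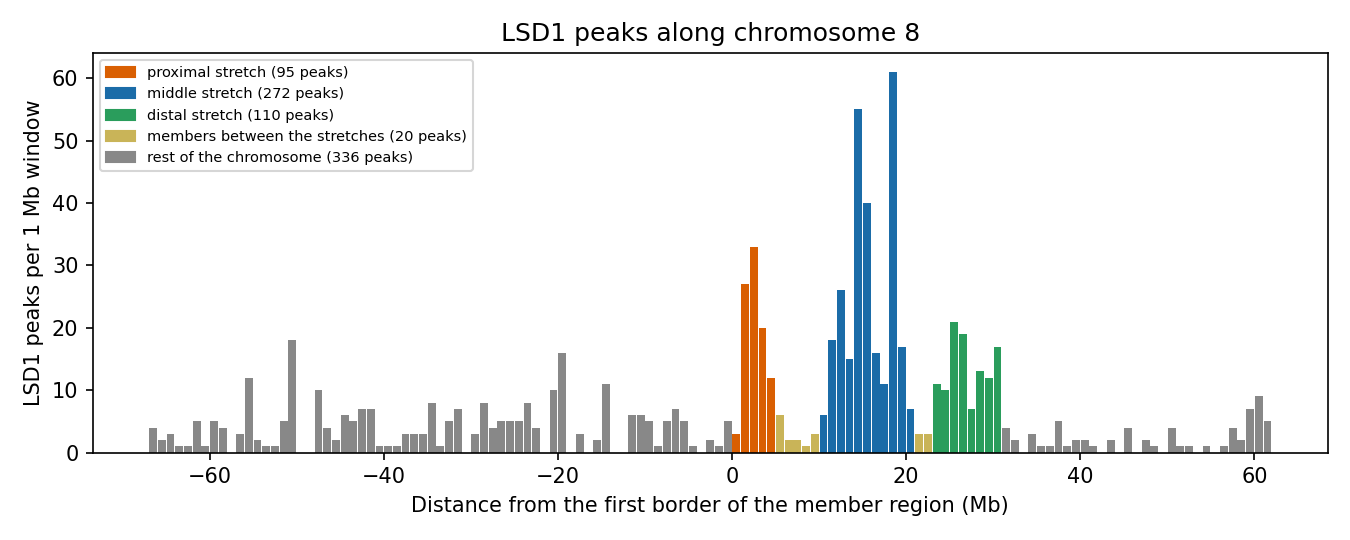
LSD1 peaks per window of 1 Mb along chromosome 8 (bars), against the distance in Mb from the 70 Mb border. Bars in the proximal stretch reach 33 peaks, in the middle stretch 61 and in the distal stretch 21, while the highest bar in the rest of the chromosome is at 18.

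Along the chromosome, the first border of the rule lay before the density rose. The window from 70 to 71 Mb held 3 peaks, and the next windows held 27, 33, 20 and 12. In the middle stretch the windows ranged from 6 to 61 peaks with a median of 17, and those at 84, 85 and 88 Mb held 55, 40 and 61. These 3 windows had 57.4% of the peaks of the middle stretch. The distal stretch was more level, with 7 to 21 peaks per window and a median of 12.5.

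No border of the rule fell within a called peak. Called sequence covered 1.39% or less of each stretch, so nearly any position lies between peaks and this marks no natural break. At 70 Mb, the last peak outside started at 69713749 (331 bp, score 65.64) and the first inside at 70454785 (509 bp, score 115.69). At the far border, the last peak inside started at 100927545 (291 bp, score 50.91) and the first outside at 101049595 (281 bp, score 53.5). The scores are the authors' peak caller's own, on a scale that is not stated, and serve only to rank peaks of this list. The lowest score in the list was 50.01, so 50.91 and 53.5 lie close to its bottom. The last peak of the proximal stretch started at 74383019 and the next one at 75304371. Around 80 Mb the neighbouring starts were 79956879 and 80016223, around 91 Mb they were 90863755 and 91179010, and around 93 Mb they were 92645810 and 93078653. The highest-scoring member between the stretches was the 827 bp peak at 92645810 to 92646636, with a score of 158.07.

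The stretches differed in how their peaks were spaced. The median distance between consecutive starts was 2.78 kb in the proximal stretch (lower and upper quartiles 1.3 and 8.65 kb), 16.1 kb in the middle stretch (4.09 and 38.7 kb) and 41.7 kb in the distal stretch (11.4 and 109 kb). In the rest of chromosome 8 the median was 113 kb (27.5 and 370 kb). The order by median spacing was thus not the order by density over the lengths set by the rule. The proximal stretch had fewer peaks per Mb than the middle one, but a shorter median distance. Its starts spanned only 70454785 to 74383019 of its 5 Mb, against 80016223 to 90863755 of 11 Mb in the middle stretch. For peaks that reached the list's median score, the proximal density was the higher one, 11.6 against 10.2 per Mb. The mean distance was nearly the same in these stretches, 41.8 kb and 40.03 kb.

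**Figure D2:**
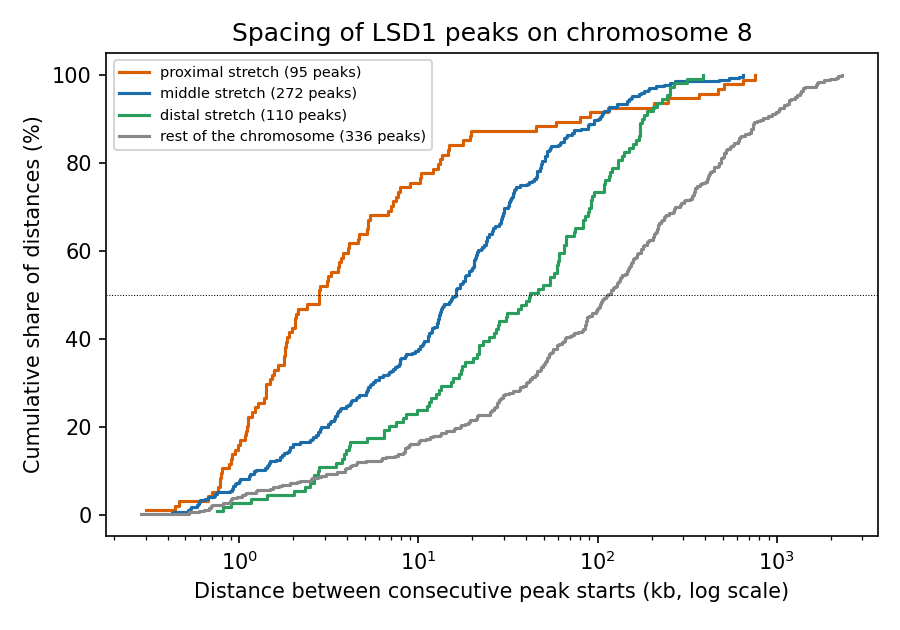
Cumulative share (%) of the distances between consecutive peak starts, in kb on a log scale, for the 3 stretches and for the rest of chromosome 8. The curves cross 50% (dotted line) at 2.78, 16.1, 41.7 and 113 kb, and the proximal curve rises fastest and then flattens, with 75.5% of its distances at 10 kb or shorter.

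The proximal stretch combined very short and very long distances. Of its 94 distances 75.5% were 10 kb or shorter, and 8 exceeded 100 kb, of which the longest, 753.5 kb, ran from the peak starting at 72770445 to the one starting at 73523899. The coefficient of variation of the distances, the SD divided by the mean, was 3.11 there, 2.0 in the middle stretch, 1.1 in the distal stretch and 1.46 in the rest of the chromosome. Peaks fell into only 15 of the 50 windows of 100 kb (30.0%) of the proximal stretch. They fell into 79 of 110 such windows (71.8%) of the middle stretch, 58 of 80 (72.5%) of the distal stretch and 223 of 980 (22.8%) of the rest. The fullest window of 100 kb held 28 peaks in the proximal, 13 in the middle and 7 in the distal stretch.

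In the middle stretch 37.6% of 271 distances were 10 kb or shorter and 10.3% were longer than 100 kb. Its longest distance was 648.9 kb, between the starts at 80522206 and 81171106. In the distal stretch 23.9% of 109 distances were 10 kb or shorter, 26.6% were longer than 100 kb, and the longest was 389.1 kb, between the starts at 94034343 and 94423417. The closest neighbours of each stretch were under 1 kb apart. The closest pair of the proximal stretch, at 72014553 and 72014856, started 303 bp apart with an uncalled gap of 69 bp. That of the middle stretch, at 82877782 and 82878201, started 419 bp apart with a gap of 71 bp, and that of the distal stretch, at 98942975 and 98943729, started 754 bp apart with a gap of 446 bp.

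Tight groups, taken as chains of 5 or more peaks with steps of at most 10 kb from start to start, were chiefly a feature of the proximal stretch. It had 6 such groups with 68 of its 95 peaks (71.6%). The middle stretch had 5 groups with 30 of 272 peaks (11.0%), the distal stretch 1 group with 5 of 110 (4.55%) and the rest of chromosome 8 had 2 groups with 14 of 336 (4.17%, or 1.57% without the window from 19 to 20 Mb). In the whole list the share was 11.5%. Pairs and chains of up to 4 peaks showed another order: they held 15.8% of the proximal, 48.5% of the middle and 37.3% of the distal peaks, and 23.5% of those in the rest. On a coarser scale, with starts following each other within 50 kb, chains of at least 5 peaks held 86.3% of the proximal peaks in 3 chains, 69.5% of the middle peaks in 13 chains, 31.8% of the distal peaks in 6 chains and 8.63% of the peaks in the rest in 4 chains.

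**Figure D3:**
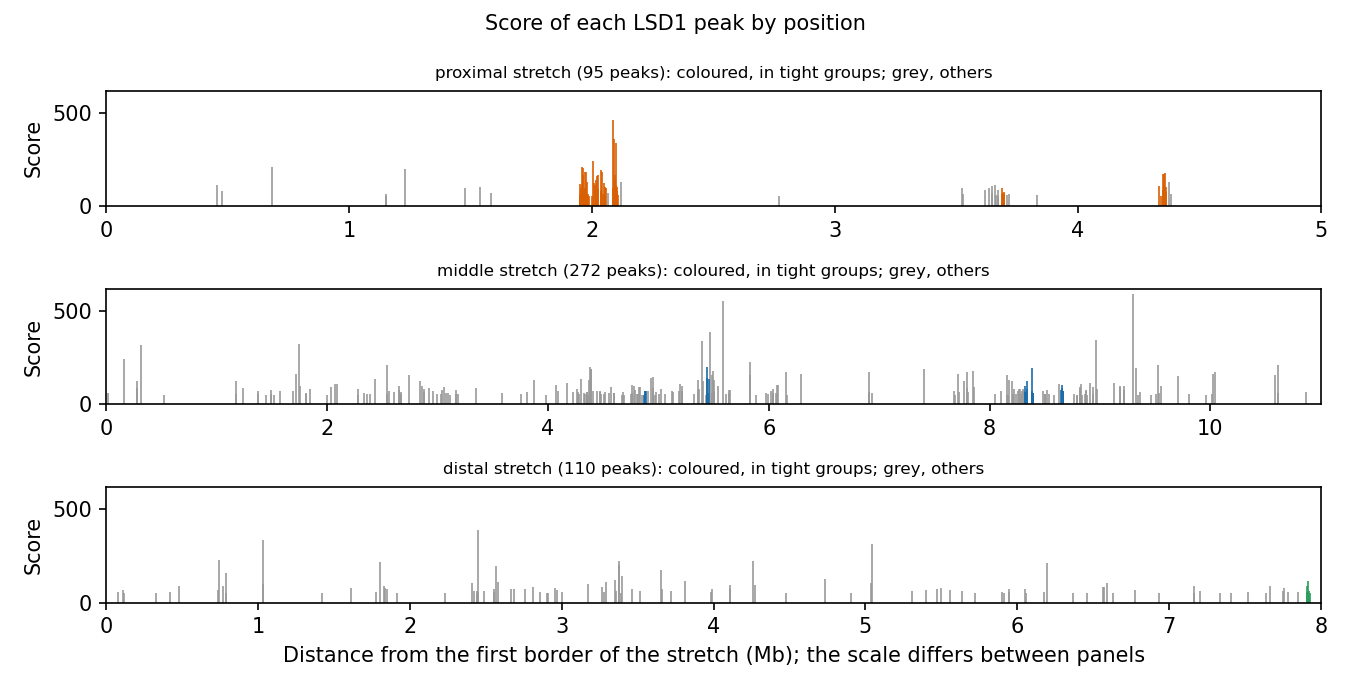
Score of each LSD1 peak (line height) against its distance in Mb from the first border of its stretch, 1 panel per stretch, with peaks of tight groups in colour and the others in grey. In the proximal panel 68 of 95 lines are coloured and stand in a few places, and in the middle and distal panels 30 of 272 and 5 of 110 are coloured and the tallest lines are grey.

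In the proximal stretch, 4 tight groups followed each other between 71947983 and 72106114 and held 51 of its 95 peaks. The group at 71947983 to 71986146 had 21 peaks over 38.2 kb, the most of any tight group on chromosome 8. Its starts were 756 to 5247 bp apart with a median of 1454 bp, its peaks were 194 to 910 bp long with a median of 404 bp, and they covered 24.7% of the group. The next group, at 72000284 to 72023717, had 12 peaks over 23.4 kb with a median length of 311.5 bp. Its starts were 303 to 4589 bp apart, with a median of 2051 bp.

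The third group of this series, at 72036641 to 72056291, had 8 peaks with starts a median of 1966 bp apart. The fourth, at 72085200 to 72106114, had 10 peaks over 20.9 kb. Its starts were a median of 1835 bp apart, and its peaks were longer, with a median of 679 bp and a maximum of 2474 bp, and covered 42.9% of it. The 4 groups were separated by gaps of 14.1, 12.9 and 28.9 kb. Median scores were 94.27, 101.29, 98.045 and 125.71 in this order.

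The other groups of the proximal stretch lay apart from this series. One at 73685497 to 73696957 had 7 peaks over 11.5 kb with a median score of 67.51 and a highest score of 96.57. The other, at 74334846 to 74363073, had 10 peaks over 28.2 kb, for which the median length was 413.5 bp and the median score 105.9. The 5 windows of 100 kb that hold the 6 groups contained 80 of the 95 peaks (84.2%). Without the chain of 53 peaks from 71947983 to 72121062, the median distance between proximal starts was 7.34 kb, the share in tight groups was 40.5% and the density was 8.4 per Mb, so that 1 locus moved each of these values by more than 1.5 times.

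The tight groups of the middle stretch were small and lay in its 3 fullest windows. The group with the most peaks, at 88645454 to 88668212, had 9 peaks over 22.8 kb, with starts 518 to 7902 bp apart and a median length of 394 bp. A group at 88384325 to 88392840 had 6 peaks in 8.52 kb, a median of 1129 bp apart, and covered 36.0% of that sequence. A group at 88322744 to 88339215 had 5 peaks, a median of 4022 bp apart, over 16.5 kb. The groups at 84869532 to 84886531 and at 85438291 to 85456235 also had 5 peaks each, with median scores of 69.24 and 138.34. The distal stretch had its only group at its end, at 100905654 to 100927835, with 5 peaks a median of 5304 bp apart, of which the median length was 356 bp and the median score 64.75. Its share fell to 0 when the borders were moved 1 Mb inwards.

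Wider crowding in the middle stretch took the form of loose chains. It had 4 chains of at least 20 peaks with starts within 50 kb, with 98 peaks (36.0% of the stretch), and only 21 of those peaks were in tight groups. The chain at 84225567 to 84602257 had 26 peaks a median of 12.6 kb apart and no tight group. The chain at 85322238 to 85539214 had 20 peaks a median of 8.46 kb apart. Its median length was 570 bp and its median score, 110.91, was the highest of the 4. The chain at 84753948 to 85058090 and the one at 88154916 to 88392840 had 26 peaks each, with median scores of 66.725 and 71.28. For comparison, the chain of the proximal stretch had 53 peaks a median of 1.86 kb apart, and called sequence covered 16.9% of it against 2.98 to 6.87% of the 4 middle chains. Without these chains the middle stretch held 15.8 peaks per Mb, with 5.17% of its peaks in tight groups. Groups were also built anew from only the peaks that reached the list's median score of 78.25. No middle or distal peak was then in a tight group, whereas 72.4% of the 58 proximal peaks that reached that score were. In the rest of chromosome 8 the share of such peaks was 5.26%. The groups built from all peaks did hold peaks above that score, up to 198.0 in the middle and 115.35 in the distal stretch.

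Within the stretches, isolated members, with no other start within 50 kb, were most frequent in the distal one. They were 5 of 95 proximal peaks (5.26%), 19 of 272 middle peaks (6.99%), 29 of 110 distal peaks (26.4%) and 156 of 336 peaks in the rest (46.4%). Of the 20 members between the stretches, 14 were isolated. By the coefficient of variation of the distances the peaks of the distal stretch were the most evenly spaced of the 3 stretches, while its share of filled windows was close to that of the middle one.

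Peak lengths differed less between stretches than spacing did. The median was 406 bp in the proximal stretch (quartiles 331 and 576.5 bp, range 150 to 2474 bp), 452 bp in the middle stretch (359.5 and 650.2 bp, 235 to 3314 bp) and 434 bp in the distal stretch (344 and 682.8 bp, 222 to 1601 bp). It was 427 bp in the rest of chromosome 8 and 441 bp in the whole list. Peaks of 1 kb or longer were 5 of the proximal (5.26%), 21 of the middle (7.72%) and 10 of the distal peaks (9.09%), against 5.95% in the rest and 6.32% in the list. In the rest, 15 of the 20 such peaks started in the window from 19 to 20 Mb, and the share without that window was 1.57%. Without its 53-peak chain, the proximal stretch had 1 such peak among 42 (2.38%). Broad peaks of 2 kb or longer were few: 3 of the 497 members (0.604%) reached that length, and 10 of the 13 such peaks on chromosome 8 lay outside the 31 Mb region. All of those 10 started from 19 to 20 Mb, and the rest of the chromosome without that window had none.

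Scores ran in another order than lengths. The median score was 94.27 in the proximal stretch (quartiles 65.945 and 126.77), 71.37 in the middle stretch (56.525 and 99.235) and 67.99 in the distal stretch (55.24 and 88.632). In the rest of chromosome 8 it was 79.085, and in the whole list 78.25. The list's median was reached by 61.1% of the proximal peaks, against 41.2% of the middle and 35.5% of the distal peaks. Its upper quartile, 119.41, was reached by 27.4%, 19.5% and 12.7% of them. Without the 53-peak chain, the proximal median was 80.26 and 14.3% of its peaks reached the upper quartile. High density thus did not go with high scores in the middle and distal stretches, where most members scored in the lower part of the list. The lower quartiles of both, 56.525 and 55.24, lay near the lowest score of the list, 50.01. Counting only peaks that reached the list's median, the density was 11.6 per Mb in the proximal, 10.2 in the middle and 4.88 in the distal stretch, against 1.76 in the rest. Of the 58 proximal peaks so counted 37 lay in the 53-peak chain, and without dense chains the densities were 4.2 per Mb in the proximal and 6.55 in the middle stretch.

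Length followed score less closely in the proximal stretch. Spearman's rho between them was 0.28 across its 95 peaks, 0.67 across the 272 of the middle stretch, 0.63 across the 110 of the distal stretch and 0.74 across the 336 of the rest. The peak caller sets both values from the same 2 libraries, so these coefficients describe the list only. A short peak with a high score was the 261 bp peak at 71957750 to 71958010, whose score of 209.27 was the fifth highest of the proximal stretch. Without the chain from 71947983 to 72121062 the proximal coefficient was 0.57 across 42 peaks.

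The highest-scoring members stood in tight groups in the proximal stretch and outside them elsewhere, as most peaks of each stretch did. All of the 5 highest of the proximal stretch lay in tight groups, and none of the 5 highest of the middle or of the distal stretch did. Of all peaks of these stretches, 71.6%, 11.0% and 4.55% were in tight groups, so these counts do not set the highest-scoring peaks apart. The top score among all members, 592.55, belonged to a 1205 bp peak of the middle stretch at 89296369 to 89297573, whose nearest start was 28.6 kb away. The next, 556.12, was that of a 1541 bp peak at 85589380 to 85590920, with its nearest start 23.7 kb away. The other 3 of the middle stretch were at 85466943 to 85468288 (386.65), 88960659 to 88961804 (344.59) and 85394361 to 85395781 (342.14), and were 1146 to 1421 bp long.

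In the proximal stretch the first 3 places were all in the group that begins at 72085200. They were the 1746 bp peak at 72085200 to 72086945 (score 460.13), the 2474 bp peak at 72088891 to 72091364 (358.84) and the 938 bp peak at 72098559 to 72099496 (336.7). The fourth was a 1007 bp peak at 72004371 to 72005377 (239.62). In the distal stretch the highest scores were 391.52 for a 1295 bp peak at 95447313 to 95448607 and 333.1 for a 1012 bp peak at 94033182 to 94034193. They were followed by 312.8 at 98040479 to 98041342, 228.2 at 93742002 to 93742810 and 221.89 at 96378226 to 96379791. All 5 of these distal peaks had a neighbouring start within 10 kb, in pairs or chains of up to 4 peaks. Of all 110 distal peaks, 46 (41.8%) had a start within 10 kb and 37.3% were in such pairs or chains. Whether the highest-scoring peaks differ from the others in this was not tested.

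The longest members did not always score high. The longest was a 3314 bp peak of the middle stretch at 81749131 to 81752444, with a score of 325.39. The next in that stretch, of 2137 bp at 89343198 to 89345334, had a score of 50.14, which ranked 496 among the 497 members. It lay 18.3 kb beyond the start of a 1932 bp peak at 89324935 to 89326866 with a score of 193.84. In the proximal stretch a 1875 bp peak at 72065728 to 72067602 scored 72.8 and stood between the third group of the series and the fourth. In the distal stretch the longest peaks were 1601 bp at 96461334 to 96462934 (score 73.75), 1566 bp at 96378226 to 96379791 (221.89) and 1343 bp at 97733565 to 97734907 (126.68).

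Crowding and median length went in opposite directions in the middle stretch. The median length there was 406 bp for peaks in tight groups, 448 bp in pairs and chains of up to 4, 478.5 bp with no start within 10 kb and 685 bp for the 19 peaks with none within 50 kb. Of those 19 isolated peaks 6 were 1 kb or longer (31.6%), against 2 of 30 in tight groups (6.67%). That share did not fall steadily with crowding. It was 3 of 132 in pairs and chains of up to 4 (2.27%). With no start within 10 kb, a class that includes the 19, it was 16 of 110 (14.5%). The proximal stretch had medians of 394.5, 396, 557.5 and 573 bp in the same order, the last from 5 peaks. The distal stretch showed no such order, with 356, 513, 421.5 and 407 bp. In the rest of chromosome 8 the order was the reverse, from 1096 bp in tight groups to 398 bp for isolated peaks. Of the 14 grouped peaks there, 9 lay at 19738418 to 19767782, where the median length was 1400 bp and the median score 299.61. The other 5 grouped peaks had medians of 587 bp and 72.21.

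**Figure D4:**
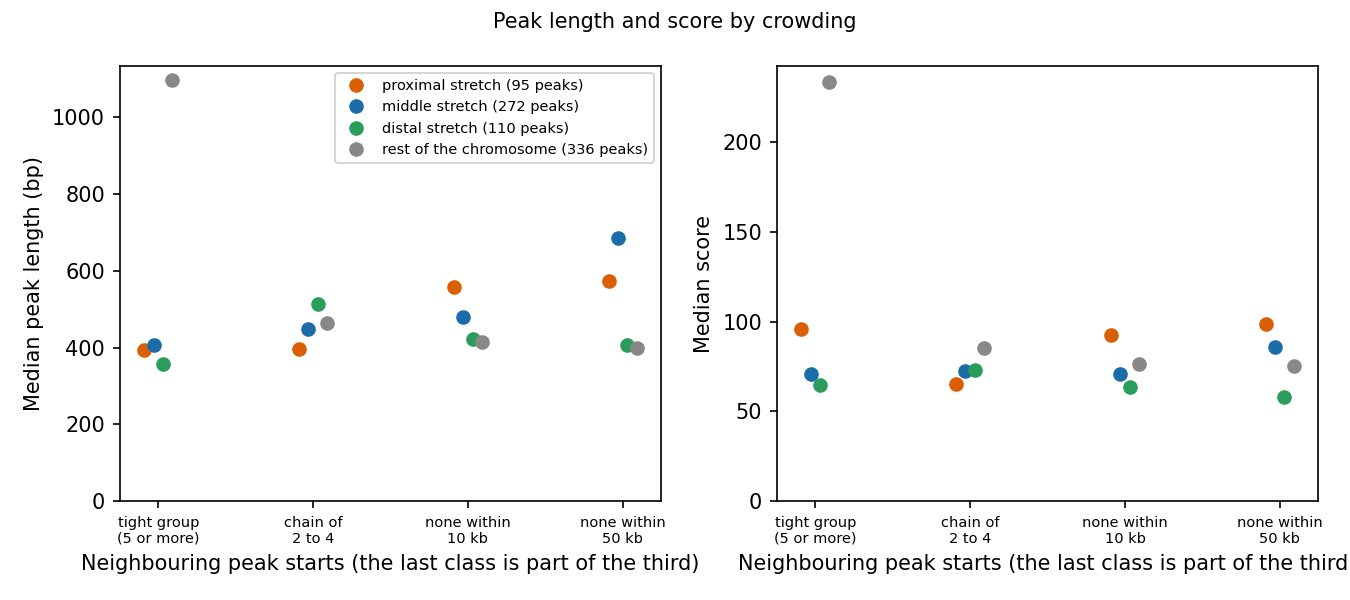
Median peak length in bp (left) and median score (right) of peaks in tight groups, in chains of 2 to 4, with no start within 10 kb and with none within 50 kb, for each stretch and the rest of chromosome 8 (1 point each, both axes from 0). Isolated middle peaks reach 685 bp against 406 bp in its tight groups, and the grouped peaks of the rest stand apart at 1096 bp and a score of 233.59.

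Windows of 1 Mb went in the same direction within the middle stretch. Its 3 windows of at least 40 peaks, a limit chosen after the values were seen, had a median length of 442.5 bp and 8 of 156 peaks of 1 kb or longer (5.13%). Its other 8 windows had a median of 508.5 bp and 13 of 116 such peaks (11.2%). Spearman's rho between the number of peaks and the median length of a window was -0.43 over the 11 windows of the middle stretch and -0.69 over the 8 of the distal stretch. Over all 31 windows of the region it was -0.10. These are descriptions of neighbouring windows of 1 list.

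**Figure D5:**
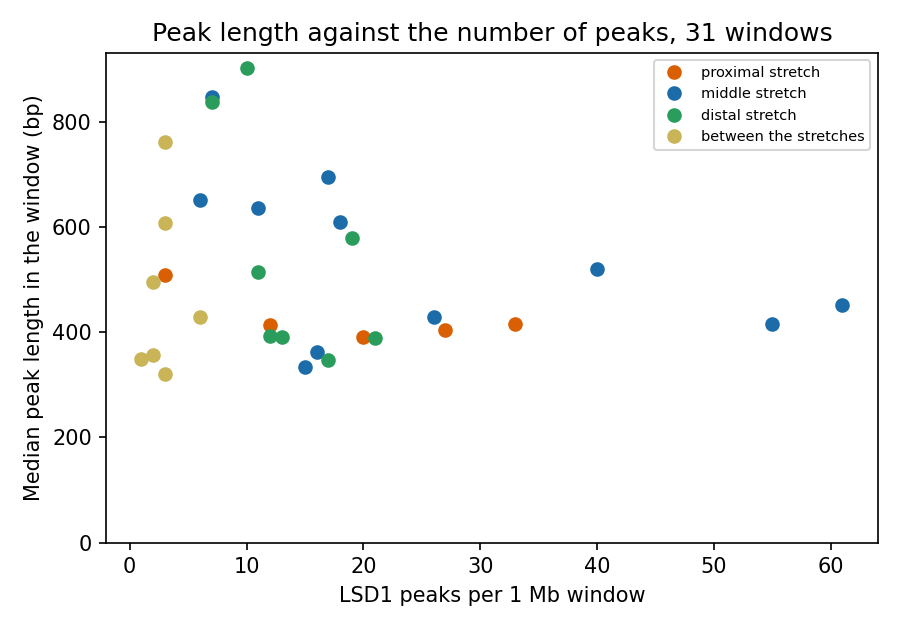
Median peak length in bp (y axis, from 0) against the number of LSD1 peaks (x axis) in each of the 31 windows of 1 Mb of the region, coloured by stretch. The fullest window, with 61 peaks, has a median of 452 bp, and the window with the highest median, 902.5 bp, has 10 peaks.

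Close calls made up more of the proximal stretch than of the others. Peaks joined across uncalled gaps of up to 1 kb gave 66 intervals in place of 95 peaks there, 239 in place of 272 in the middle stretch and 105 in place of 110 in the distal stretch. The longest joined intervals were 5.03, 3.31 and 2.38 kb. With joined intervals the median distance between proximal starts was 5.77 kb, and 56.1% of the intervals were in tight groups. Whether neighbouring calls are parts of 1 broader site was not tested.

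The stretch of chromosome 15 from 48 to 70 Mb, with 335 peaks, had nearly the same density as the whole 31 Mb region, 15.2 against 16.0 per Mb. Its peaks were less grouped: 3.58% were in tight groups, against 20.7% of the 497 members, and its median distance between starts was 26.0 kb against 15.3 kb. Most of the 103 grouped members lay in the proximal stretch, which had 68, and 51 of them in its 53-peak chain. The median score of the chromosome 15 stretch was 84.38 against 72.04, and its median length 490 bp against 442 bp. Among the 3 stretches of chromosome 8, the distal one was nearest to it in density (13.8 per Mb) and in tight groups (4.55%), the middle one in median spacing (16.1 kb) and length (452 bp) and the proximal one in median score (94.27).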

How the data were processed

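The authors aligned reads with BWA to mm9, per the submitters' processing notes, and called peaks with MACS in Galaxy, per the file headers. Versions, settings and duplicate filters were not given in these sources. Per peak, the deposited list holds a position and a score of unstated scale. Peaks were kept where the chromosome was 8 and the start lay from 70 Mb to under 31 Mb beyond it. Positions are printed 1-based. Distances run from start to start between consecutive peaks of the same stretch, and groups were built on the whole chromosome. The rest of chromosome 8 spans its first to last peak without that region. Functions were tested on simulated data. Named were, per stretch, the 5 highest-scoring and 3 longest peaks, the 3 largest tight groups, the closest and longest distances and the border peaks. Other groups and chains were named after their values were seen. Members, stretches and class limits were chosen with earlier results of these data known. Planned promoter annotation was not run, since the gene table was of GRCm38. Values were computed in Python (3.11.15) with pandas (2.3.3), numpy (2.4.6) and scipy (1.17.1), and plotted with matplotlib (3.10.9).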

Additional observations from a re-analysis of the deposited data

How the results depend on the processing

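Of 69 values under the planned settings, 34 stayed within the 95% binomial interval of the main share or median, or within 1.5 times the main density, and 35 did not. The intervals take each peak or distance as independent, which peaks of 1 chain are not. They serve only as a yardstick and measure no spread between libraries. The order of the stretches by median spacing was the same under each of the planned settings. For the proximal, middle and distal stretches and the rest of chromosome 8 in turn, peaks at or above the list's median score gave densities of 11.6, 10.2, 4.88 and 1.76 per Mb, and median lengths of 466, 644.5, 655 and 557 bp. The median distance there became 31.6 kb in the middle and 135 kb in the distal stretch, near the 136 kb of the rest. Tight groups built anew from these peaks alone held none of the middle or distal peaks (0%). Joined intervals (gaps of up to 1 kb) moved the proximal distance to 5.77 kb, its length to 508 bp and its grouped share to 56.1%, and the grouped shares of the middle stretch and the rest to 6.69 and 0%. Leaving out dense chains (20 or more peaks, steps within 50 kb), proximal and middle distances were 7.34 and 21.0 kb, densities 8.4 and 15.8 per Mb and grouped shares 40.5 and 5.17%. Groups within 5 kb held 5.15% of the middle, 0% of the distal and 1.49% of the other peaks. Within 50 kb the shares were 86.3, 69.5, 31.8 and 8.63%. With at least 10 peaks a group they were 55.8% in the proximal stretch and 0% elsewhere. Settings added after seeing the data left out 1 window of the rest or the dense chains of a stretch. Without the window from 19 to 20 Mb, the rest had 1.57% of peaks of 1 kb or longer, 0% of 2 kb or longer and 1.57% in tight groups. Without dense chains, 1 in the proximal and 4 in the middle stretch, peaks at or above the median score numbered 4.2 and 6.55 per Mb there. Borders 1 Mb inwards left 0% in distal groups. The promoter windows could not be run without an annotation of mm9. No paired analysis was possible because there was 1 library a group, and none could be left out. Depth is unknown, so weaker sites that went uncalled cannot be counted.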
